A study of Homo sapiens with 16 samples.

Results

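DNA replication genes are described here across 4 acute myeloid leukaemia (AML) lines after azacitidine. The set holds 49 genes of origin licensing, the replicative helicase, the DNA polymerases, the clamp and its loader, Okazaki fragment joining, E2F and cyclin E, thymidylate supply and chromatin assembly. They were taken by gene symbol from 19775 genes that had a probe set with a single symbol, and each gene was read from its probe set of highest average signal. All 49 passed the filter on low values, which kept 14038 genes at or above the median of an array for 2 or more of the 16 arrays. Mean log2 signals of the members ran from 8.52 for CHAF1B to 13.84 for TYMS, against an array median of 6.73.

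The 8 groups were AML-193 with AZA and with vehicle, HNT-34 with AZA and with vehicle, KG1a with AZA and with vehicle, and HL60 with AZA and with vehicle, with 2 Affymetrix U133 Plus 2.0 arrays in each. AZA is azacitidine, given at 0.5 µM on each of 3 days, followed by 4 days in medium without drug. The vehicle was DMSO, and every group grew in the same light-isotope RPMI medium for mass spectrometry. All are established human lines, among them the promyelocytic line HL60, the monocytic line AML-193 and the immature line KG1a. Whether the 2 arrays of a group stem from separate cultures is not in the labels, so p-values cover only the spread between these arrays, which may be technical.

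Replication is prepared in G1, when the origin recognition complex with CDC6 and CDT1 loads rings of MCM2 to MCM7 on DNA. At the start of S phase CDC45 and GINS join the rings to form the active helicase, primase and DNA polymerase alpha lay primers, and RFC loads the sliding clamp PCNA for polymerases delta and epsilon. Many of these genes are transcribed under E2F, a factor released from RB by cyclin-dependent kinases. Azacitidine, a cytidine analogue, enters RNA and, after conversion, newly replicated DNA, where it traps DNA methyltransferases.

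Promoters of the members were searched for E2F motifs and the CCAAT box. Any part of these motifs in the AZA changes was not tested. RefSeq promoter windows of build GRCh38.p14 were matched by symbol for 42 of the 49 genes, and the 250 bases before the annotated start were searched on both strands for the E2F motifs TTTCCCGC, TTTCGCGC, TTTGCCGC and TTTGGCGC. At least 1 of these stood in 17 of the 42 genes (40.5%), against 3.4% of 27305 genes with a window of the same length. The CCAAT box, read as CCAAT on either strand, stood in 25 of the 42 (59.5%), against 37.0% of all genes. The member windows also held a median of 24.5 CpG sites, against 11.0 over all genes, and a median GC content of 65.0%, against 58.0%. The 5 windows below are printed 5′ to 3′ on the gene's strand, up to the base before the start, with the E2F motifs in capitals. MCM6 and DTL fell in 3 lines, MCM3 had the smallest adjusted p of any member in HNT-34, and E2F1 and RFC1 moved in opposite directions in different lines.
MCM6 (chr2:135876444-135876693, minus strand): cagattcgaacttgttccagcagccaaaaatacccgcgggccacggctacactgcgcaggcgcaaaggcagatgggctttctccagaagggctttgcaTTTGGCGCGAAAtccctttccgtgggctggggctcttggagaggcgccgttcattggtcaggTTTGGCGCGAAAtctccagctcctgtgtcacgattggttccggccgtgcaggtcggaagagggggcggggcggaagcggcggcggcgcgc
MCM3 (chr6:52284743-52284992, minus strand): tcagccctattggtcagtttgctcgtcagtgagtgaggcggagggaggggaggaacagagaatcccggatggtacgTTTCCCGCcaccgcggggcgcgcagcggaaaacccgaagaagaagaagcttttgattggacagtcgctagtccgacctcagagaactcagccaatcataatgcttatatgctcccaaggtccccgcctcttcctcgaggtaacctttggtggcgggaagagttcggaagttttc
DTL (chr1:212035498-212035747, plus strand): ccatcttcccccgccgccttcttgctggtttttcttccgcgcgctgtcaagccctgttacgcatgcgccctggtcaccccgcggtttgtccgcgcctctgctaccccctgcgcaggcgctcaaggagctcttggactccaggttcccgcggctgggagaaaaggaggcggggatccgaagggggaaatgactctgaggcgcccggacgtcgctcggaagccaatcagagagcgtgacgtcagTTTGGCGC
E2F1 (chr20:33686386-33686635, minus strand): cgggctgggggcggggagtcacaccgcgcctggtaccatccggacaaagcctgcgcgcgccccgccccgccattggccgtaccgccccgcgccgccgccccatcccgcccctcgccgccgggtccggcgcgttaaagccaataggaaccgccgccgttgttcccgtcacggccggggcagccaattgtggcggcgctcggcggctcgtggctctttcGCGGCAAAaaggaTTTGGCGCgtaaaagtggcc
RFC1 (chr4:39366363-39366612, minus strand): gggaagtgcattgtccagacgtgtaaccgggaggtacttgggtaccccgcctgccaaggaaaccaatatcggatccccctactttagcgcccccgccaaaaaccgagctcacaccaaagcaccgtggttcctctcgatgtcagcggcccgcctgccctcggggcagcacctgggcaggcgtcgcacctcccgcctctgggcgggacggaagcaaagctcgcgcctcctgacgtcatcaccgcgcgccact
In the MCM6 window TTTGGCGC occurs at 2 places, 152 and 90 bases before the start, and each copy overlaps a TTTCGCGC on the other strand. MCM3 holds a single TTTCCCGC 174 bases before the start. DTL has TTTGGCGC in the last 8 bases of its window. E2F1 carries TTTGCCGC on the other strand 33 bases before its start and TTTGGCGC 20 bases before it. None of the 4 motifs is in the RFC1 window. A match or its absence describes letters in this window only.

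Of the 10 markers of myeloid leukaemia cells listed, 9 were measured and 6 to 9 of them reached the array median in each group. All 9 reached it in both HL60 groups, 8 in both KG1a groups and 7 in both HNT-34 groups. In AML-193, 8 reached it with AZA and 6 with vehicle. Among those below it were KIT in AML-193 and MPO in HNT-34, while PTPRC, SPI1 and CEBPA were above it in every group. From 1 to 3 of 4 T cell markers, 1 to 2 of 3 B cell markers, 1 of 4 epithelial and 2 of 4 fibroblast markers reached it. Replicate arrays correlated across all tested genes at r = 0.995 to 0.998. Arrays of AML-193 with vehicle and of HL60 with AZA stood apart in an RNA control. Array controls for ACTB and GAPDH sit at both ends of the transcript, and their 3′ signal minus their 5′ signal is larger in degraded RNA. This RNA control signal was 0.229 and 0.168 log2 units on the AML-193 AZA arrays, against 1.59 and 0.939 with vehicle. On HL60 arrays it was 0.837 and 0.607 with AZA, against 0.0361 and 0.0526 with vehicle. HNT-34 arrays read -0.0921 and -0.111 with AZA, and -0.0796 and 0.0730 with vehicle. KG1a arrays read 0.0596 and 0.0577 with AZA, and 0.122 and -0.0608 with vehicle. Counts in AML-193 and HL60 are therefore given also from a fit with this signal as a covariate, and values from it stand beside changes whose direction or size it moved most. Its slope rests on differences between the 2 arrays of a group.

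DNA replication genes had negative differences in HNT-34 for 41 of 49 members and in KG1a for 39, where 48.4% and 46.1% of all genes had them, and far fewer passed the test in KG1a. Differences are log2 AZA minus log2 vehicle, ± gives their standard error from limma, and a gene is called at an adjusted p under 0.05 (Benjamini-Hochberg over all tested genes). In HNT-34, 24 of 49 fell and 3 rose, where 14.8% of all tested genes fell and 15.4% rose. AML-193 had 18 that fell and 10 that rose (20.3% and 20.7% of all genes). HL60 had 19 that fell and 8 that rose (16% and 25.2% of all genes). KG1a had 3 that fell and 0 that rose (3.37% and 6.56% of all genes), while 13 and 1 were past an unadjusted limma p of 0.05. The median difference of the members was -0.17 in AML-193, -0.24 in HNT-34, -0.13 in KG1a and -0.11 in HL60, while the median of all genes was 0.02, 0.01, 0.02 and 0.05. These are whole cultures, so fewer cells in S phase and less RNA per cell cannot be told apart. In HNT-34 the sum of log2 signals over the 9 myeloid markers was 80.0 with AZA and 83.0 with vehicle, and CD34 (-1.25), FLT3 (-1.08) and KIT (-0.90), genes of immature myeloid cells, fell. The part of these markers in the falls of replication genes was not tested.

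**Figure D1:**
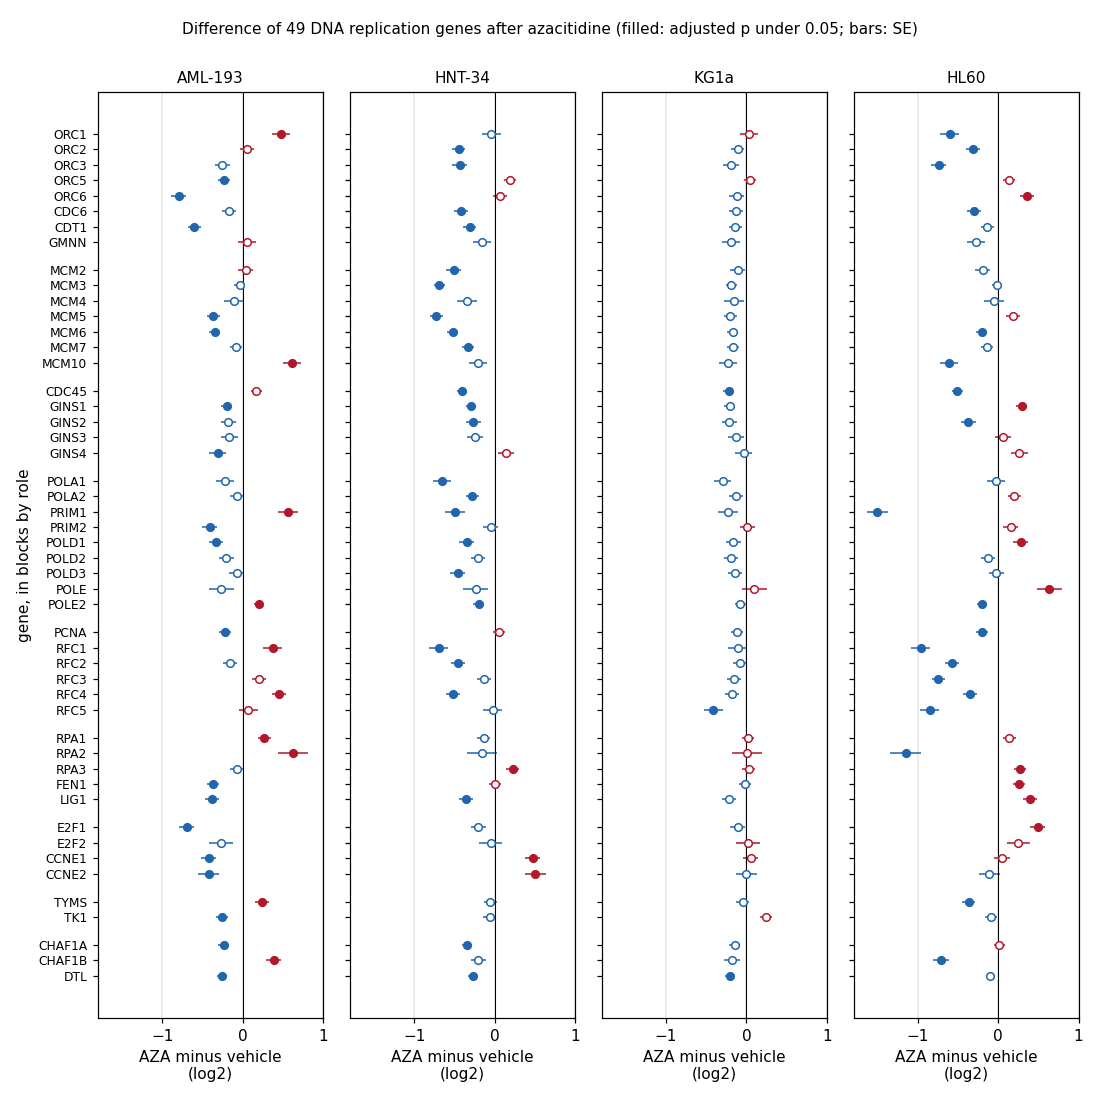
Difference AZA minus vehicle (log2, x axis) of each of the 49 genes (y axis, in blocks by role) in AML-193, HNT-34, KG1a and HL60; bars are standard errors and filled points passed an adjusted p of 0.05. Points lie mostly left of 0 in HNT-34 and close to 0 in KG1a, and on both sides of 0 in AML-193 and HL60.

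With the RNA control as a covariate, HNT-34 had 24 falls and 2 rises (15.8% and 16.7% of all genes), and KG1a 3 falls (4.35%). AML-193 was left with 1 fall (RFC2, -0.59) and 0 rises, where 1.12% and 1.54% of all genes were called, and with 6 and 0 past an unadjusted p of 0.05. HL60 was left with 7 falls and 1 rise, against 5.66% and 9.67% of all genes. The falls were ORC3, CDC45, PRIM1, RFC1, RFC3, RFC5 and CHAF1B, and RPA1 was the rise. None of the 28 members called in AML-193 without the covariate was called with it, and 6 of them turned sign (PRIM1, RFC1, RPA1, RPA2, CCNE2 and TYMS). In HL60 7 of the 27 were called with it, and 0 turned sign. The difference became smaller for 24 of the 28 and for 23 of the 27. Standard errors also grew, for ORC1 from 0.12 to 0.27 in AML-193 and to 0.20 in HL60. A lost call with the covariate is therefore not by itself a lost difference. Leaving out the AML-193 vehicle array with the highest control signal left 13 falls and 4 rises in AML-193 (13.7% and 15% of all genes). The falls in KG1a were 0 in 10 of the 16 fits that left out an array. In HNT-34 the rises dropped to 1 without the first vehicle array or without the second AZA array, and in HL60 they dropped to 5 without the first AZA array.

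The mean of the 4 lines, which weights them equally, fell for 29 members and rose for 1, RPA3 (0.11 ± 0.04, adjusted p = 0.0388), where 16.5% of all genes fell and 23.4% rose. The count of rises was 0 in 11 of the 16 fits that left out an array. Differences were negative for 43 members in this mean, where 43.1% of all genes had one. On the probe sets used, ORC3, CDC6, CDT1, MCM3, MCM4, MCM6, MCM7, GINS2, POLA1, POLD2, POLD3, RFC2 and DTL were negative in every line. The share of all genes with such a pattern was not counted. In AML-193 further probe sets that passed the filter were positive for CDC6 (0.43), CDT1 (0.18), MCM7 (0.35), POLD3 (0.10) and DTL (0.03). All those of MCM4 were positive there (0.09 to 1.14), and in HL60 they gave 0.25, -2.65, 0.16 and 0.10. In AML-193 MCM6 (-0.78) and RFC2 (-0.14) stayed negative, and GINS2 gave 0.12 and -0.29. AZA arrays lay below both vehicle arrays for 36 members in HNT-34, 30 in AML-193, 30 in KG1a and 26 in HL60, where 33.3%, 33.4%, 23.5% and 28.3% of all genes did so. AZA arrays lay above them for 5, 13, 3 and 14 members in the same order of lines, where 35.2%, 35.9%, 28.8% and 41.2% of all genes did so.

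No member fell in all 4 lines, and 3 fell in 3 lines, MCM6, CDC45 and DTL, where 2.2% of all genes did so. MCM6 encodes a subunit of the helicase ring. Its log2 signal was 12.90 and 12.76 in AML-193 with AZA, against 13.20 and 13.17 with vehicle. In HNT-34 it was 12.46 and 12.39 with AZA, against 12.96 and 12.93 with vehicle. KG1a had 13.29 and 13.32 with AZA, against 13.50 and 13.46 with vehicle. HL60 had 13.19 and 13.20 with AZA, against 13.40 and 13.40 with vehicle. The AZA arrays were the lower ones in every line, by 0.35 in AML-193, 0.52 in HNT-34, 0.17 in KG1a and 0.21 in HL60 (each ± 0.07), and only the KG1a difference was not called (adjusted p = 0.137). With the covariate the AML-193 and HL60 differences of MCM6 were -0.29 and -0.25 and were not called.

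CDC45 encodes the helicase cofactor that joins MCM rings at firing origins. Its signal in HNT-34 was 10.31 and 10.28 with AZA, against 10.76 and 10.65 with vehicle, a difference of -0.41 ± 0.06. In KG1a it was 10.32 and 10.36 with AZA, against 10.53 and 10.59 with vehicle, a difference of -0.22 (adjusted p = 0.0485). HL60 had 10.51 and 10.53 with AZA, against 11.00 and 11.06 with vehicle, a difference of -0.51. AML-193 ran the other way, with 10.66 and 10.64 after AZA against 10.47 and 10.49 with vehicle, and was not called (0.17, adjusted p = 0.0511). All 3 falls of CDC45 were called with the covariate too.

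DTL encodes the adaptor that brings CDT1 to a ubiquitin ligase during S phase. It had 11.56 and 11.59 in AML-193 with AZA, against 11.85 and 11.83 with vehicle, a difference of -0.26 ± 0.06. HNT-34 read 11.77 and 11.76 with AZA, against 12.06 and 12.01 with vehicle (-0.27). KG1a read 11.89 and 11.87 with AZA, against 12.10 and 12.07 with vehicle (-0.20, adjusted p = 0.0498). HL60 read 11.98 and 11.97 with AZA, against 12.07 and 12.07 with vehicle (-0.10), and was not called. The F-test for a difference between the 4 effects of DTL was not called either (adjusted p = 0.274). With the covariate the AML-193 difference of DTL was -0.24 and not called. Its second, dimmer probe set gave 0.03 in AML-193, -0.12 in HNT-34 and -0.25 in KG1a, none called, and -0.67 in HL60, which was called.

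**Figure D2:**
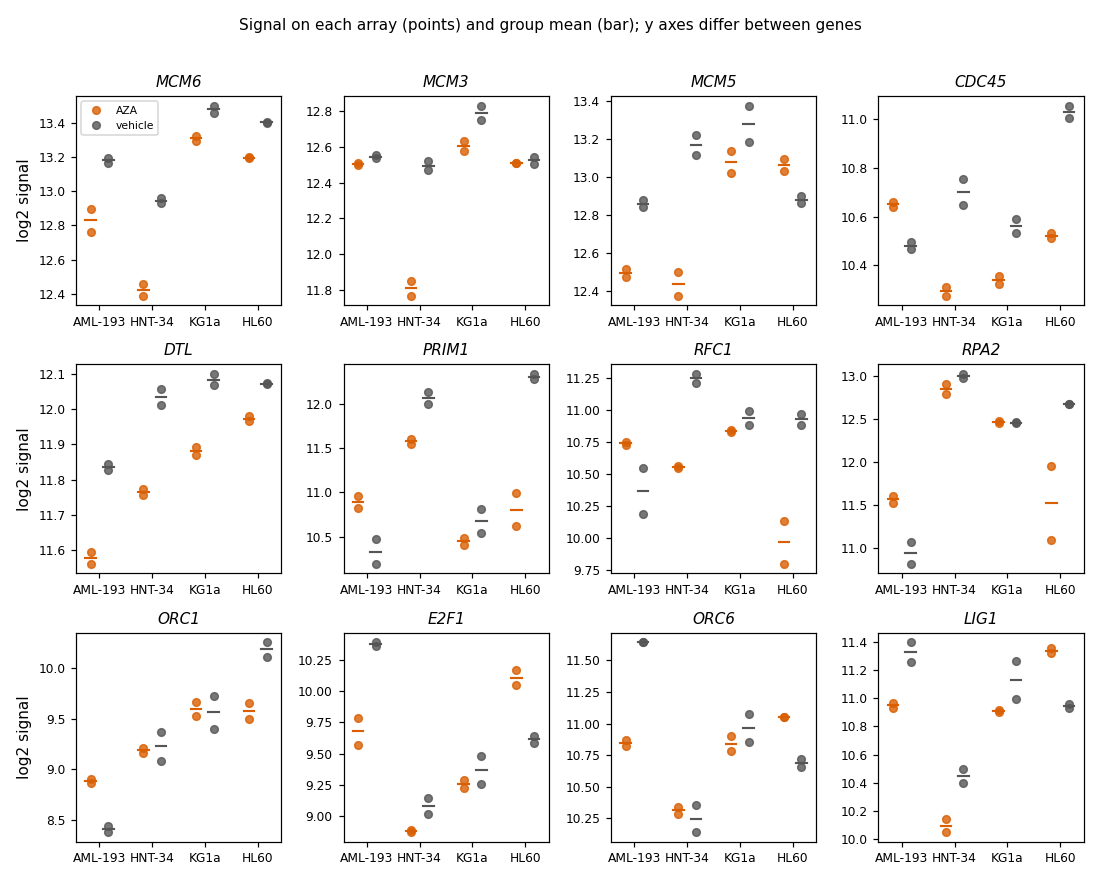
Log2 signal (y axis, its range differing between genes) of 12 DNA replication genes on each array (points), with the group mean as a bar, AZA left of vehicle in each line. MCM6 and DTL with AZA lie below vehicle in every line, while PRIM1, RFC1, RPA2 and ORC1 lie above it in AML-193 and below it in HL60.

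Origin recognition and licensing genes fell for 4 of 8 in HNT-34 and rose for none there, where 14.8% of all genes fell and 15.4% rose. ORC2 (-0.45 ± 0.08) and ORC3 (-0.44 ± 0.10) encode subunits of the origin recognition complex. CDC6 (-0.42 ± 0.09), the ATPase that helps it load MCM rings, and CDT1 (-0.31 ± 0.08), the MCM loading factor, fell as well. On the probe set used, CDT1 fell more in AML-193, where it read 11.31 and 11.29 with AZA, against 12.03 and 11.78 with vehicle (-0.60). That difference was -0.29 and not called with the covariate. The second CDT1 probe set gave 0.18 in AML-193, -0.64 in HNT-34, -0.08 in KG1a and -1.12 in HL60. GMNN, whose product geminin blocks CDT1, was called in no line, with differences from -0.28 to 0.05. Falls in this group were not limited to HNT-34. In HL60 ORC2 (-0.32), ORC3 (-0.74) and CDC6 (-0.30) fell, where 16% of all genes fell. With the covariate they were at -0.19, -0.90 and -0.10 there, and only ORC3 was called. ORC1 also fell in HL60 and ORC6 rose, as given below.

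ORC6, which encodes the smallest subunit of the complex, had the deepest fall of any member in AML-193. It read 10.82 and 10.87 there with AZA, against 11.64 and 11.64 with vehicle, a difference of -0.80 ± 0.09. In HL60 ORC6 rose, with 11.05 and 11.05 after AZA against 10.72 and 10.66 with vehicle, a difference of 0.36. ORC1, the subunit that comes and goes with the cell cycle, did the reverse. ORC1 read 8.87 and 8.90 in AML-193 with AZA, against 8.44 and 8.38 with vehicle (0.48 ± 0.12), and 9.66 and 9.50 in HL60 with AZA, against 10.11 and 10.25 with vehicle (-0.61). Arrays of the arms did not overlap for either gene in these 2 lines. With the covariate ORC6 was at -0.66 in AML-193 and 0.28 in HL60, and ORC1 at 0.42 and -0.57, none of them called. ORC5, another subunit, was called only in AML-193 (-0.23).

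The 7 MCM genes all had negative differences in HNT-34, and 5 of them fell, where 48.4% of all genes were negative and 14.8% fell. MCM5 read 12.50 and 12.38 with AZA, against 13.12 and 13.22 with vehicle (-0.73 ± 0.08), and MCM3 read 11.85 and 11.77 with AZA, against 12.47 and 12.52 with vehicle (-0.69 ± 0.06). MCM2 fell by 0.51, MCM6 by 0.52 and MCM7 by 0.33 on the log2 scale. MCM4 (-0.34, adjusted p = 0.0527) and MCM10 (-0.21), an initiation factor that is no part of the ring, were not called. MCM10 rose in AML-193 (0.62) and fell in HL60 (-0.62). With the covariate it was at 0.14 and -0.31, neither called. Its further probe sets gave -0.34, called, and 0.03 in AML-193, and 0.19 and -0.22 in HL60. In KG1a the 7 MCM genes all had negative differences, where 46.1% of all genes did. They ran from -0.23 for MCM10 to -0.11 for MCM2, none of them called and 4 past an unadjusted p of 0.05. MCM5 also fell in AML-193 (-0.37) and was at 0.18, not called, in HL60. With the covariate its AML-193 difference was -0.34 and not called, and its second probe set gave 0.06 there without the covariate. Outside HNT-34, MCM3 was called in no line. It read 12.50 and 12.51 with AZA in AML-193, against 12.54 and 12.55 with vehicle, and 12.51 and 12.51 in HL60, against 12.54 and 12.51. Its effects differed between lines (F-test, adjusted p = 0.000154), as did those of 39 of the 49 members, where 57.1% of all genes did. With the covariate the F-test was called for 18 members, where 31.4% of all genes were.

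CDC45 and the GINS complex form the active helicase with the MCM ring. GINS1 fell in AML-193 (-0.20) and HNT-34 (-0.29) and rose in HL60, where it read 11.61 and 11.68 with AZA, against 11.34 and 11.37 with vehicle (0.29 ± 0.07). With the covariate GINS1 was at -0.094 in AML-193 and 0.22 in HL60, neither called. GINS2 fell in HNT-34 (-0.27) and HL60 (-0.37), and GINS4 in AML-193 (-0.31, and -0.049 with the covariate). GINS3 was called in no line, with differences from -0.24 to 0.06.

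All 9 polymerase and primase genes had negative differences in HNT-34 and 6 of them fell, where 48.4% of all genes were negative and 14.8% fell. POLA1, the catalytic subunit of polymerase alpha, read 9.99 and 9.96 with AZA, against 10.55 and 10.71 with vehicle (-0.65 ± 0.11). POLA2 (-0.28), POLD1 (-0.35) and POLD3 (-0.46), subunits of polymerases alpha and delta, and POLE2 (-0.20), a subunit of epsilon, fell too. PRIM1, the catalytic subunit of primase, read 11.61 and 11.55 in HNT-34 with AZA, against 12.14 and 12.00 with vehicle (-0.49 ± 0.13). On the probe sets used, its fall in HL60 was the largest of any member in any line. PRIM1 read 10.62 and 10.99 there after AZA, against 12.28 and 12.34 with vehicle (-1.51). Further probe sets gave larger falls in HL60 for RFC3 (-2.82), MCM4 (-2.65), CCNE2 (-1.89) and ORC5 (-1.57). In AML-193 PRIM1 read 10.82 and 10.96 with AZA, against 10.19 and 10.47 with vehicle, a rise of 0.56. With the covariate PRIM1 was at -1.08 in HL60, still called, and at -0.12 in AML-193, not called.

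POLE, the catalytic subunit of polymerase epsilon, had the largest rise in HL60. It read 10.54 and 10.46 there with AZA, against 9.93 and 9.80 with vehicle (0.63 ± 0.16), and 0.23, not called, with the covariate. POLD1 rose in HL60 (0.28) and fell in AML-193 (-0.33), and PRIM2, the regulatory subunit of primase, fell in AML-193 (-0.41). POLE2 rose in AML-193 (0.20) and fell in HL60 (-0.20). None of these 5 changes was called with the covariate. POLD2, a subunit of polymerase delta, was called in no single line but fell in the mean of the 4 (-0.18 ± 0.05, adjusted p = 0.00632).

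Clamp and clamp loader genes fell for all 6 in HL60, where 16% of all genes fell. RFC5 read 10.43 and 10.88 with AZA, against 11.50 and 11.51 with vehicle (-0.85 ± 0.12). RFC1, the large subunit of the loader, read 9.79 and 10.13 with AZA, against 10.89 and 10.97 with vehicle (-0.96 ± 0.12). RFC3 read 10.97 and 11.24 with AZA, against 11.83 and 11.87 with vehicle (-0.74 ± 0.08). The first AZA array was the lower one for RFC5, RFC1 and RFC3, and it also had the higher RNA control signal of the 2. RFC2 (-0.57), RFC4 (-0.35) and the clamp gene PCNA (-0.20) completed the 6. The covariate left RFC1 (-0.54), RFC3 (-0.61) and RFC5 (-0.53) called.

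In HNT-34, where the RNA control was near 0 in both arms, RFC1 read 10.56 and 10.54 with AZA, against 11.28 and 11.22 with vehicle (-0.70). RFC4 read 11.17 and 11.24 with AZA, against 11.83 and 11.62 with vehicle (-0.52 ± 0.08), and RFC2 fell by 0.45 on the log2 scale. In AML-193 RFC1 (0.37) and RFC4 (0.45) rose instead, and PCNA fell (-0.22). With the covariate RFC1 turned to -0.30 in AML-193, RFC4 was at 0.37 and PCNA at -0.44, none of them called. RFC5 was 1 of the 3 genes that fell in KG1a, with 10.87 and 10.85 after AZA against 11.21 and 11.33 with vehicle (-0.41, adjusted p = 0.0424).

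Single-strand binding and Okazaki fragment genes fell for 1 of 5 and rose for 1 of 5 in HNT-34. Of all genes there, 14.8% fell and 15.4% rose. LIG1, the ligase that seals the fragments, read 10.05 and 10.14 there with AZA, against 10.40 and 10.50 with vehicle (-0.35 ± 0.09). In AML-193 LIG1 read 10.97 and 10.93 with AZA, against 11.26 and 11.40 with vehicle (-0.38). In HL60 it rose, with 11.36 and 11.32 after AZA against 10.96 and 10.93 with vehicle (0.39). FEN1, the nuclease that trims the fragments, fell in AML-193 (-0.37) and rose in HL60 (0.26). The covariate gave LIG1 -0.42 in AML-193 and 0.42 in HL60, and FEN1 -0.25 and 0.19, none of them called.

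RPA is the complex of 3 subunits that coats single-stranded DNA, and its genes did not move alike. RPA2 read 11.52 and 11.60 in AML-193 with AZA, against 10.81 and 11.07 with vehicle (0.63 ± 0.19). In HL60 it read 11.09 and 11.96 with AZA, against 12.67 and 12.68 with vehicle (-1.15), with a wide gap between the 2 AZA arrays. Neither difference was called with the covariate (-0.13 in AML-193, -0.67 in HL60). RPA3 rose in HNT-34 (0.23) and HL60 (0.27), the only member called higher in 2 lines. RPA1 rose in AML-193 (0.27) and was at -0.040, not called, with the covariate. In HL60 RPA1 was at 0.14, not called, and at 0.33, called, with the covariate. Its further probe sets gave 1.02 and -0.05 in AML-193, and -0.59 and -0.11 in HL60.

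Both cyclin E genes rose in HNT-34, where 15.4% of all genes rose, and neither E2F gene was called there. CCNE1, whose product activates CDK2 at the start of S phase, read 10.12 and 10.17 with AZA, against 9.76 and 9.58 with vehicle (0.47 ± 0.09). CCNE2, the second cyclin E, read 10.98 and 11.03 with AZA, against 10.45 and 10.54 with vehicle (0.51 ± 0.13). In AML-193 both fell, CCNE1 by 0.43 and CCNE2 by 0.42 on the log2 scale. CCNE1 read 10.96 and 10.91 with AZA there, against 11.47 and 11.25 with vehicle, and CCNE2 read 11.22 and 11.36 with AZA, against 11.95 and 11.49 with vehicle. With the covariate CCNE1 was at -0.092 and CCNE2 at 0.039 in AML-193, neither of them called.

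E2F1, an activator of the E2F family, read 9.78 and 9.57 in AML-193 with AZA, against 10.39 and 10.36 with vehicle (-0.70 ± 0.09). In HL60 E2F1 read 10.16 and 10.04 with AZA, against 9.64 and 9.59 with vehicle (0.49). The HNT-34 difference of E2F1 was -0.20 and not called (adjusted p = 0.129), and E2F2 was called in no line. With the covariate E2F1 was at -0.46 in AML-193 and 0.34 in HL60, neither called.

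Of the 2 thymidylate supply genes, both were called in AML-193 and 1 in HL60. Of all genes, 20.3% fell and 20.7% rose in AML-193, and 16% fell and 25.2% rose in HL60. TYMS, thymidylate synthase, rose in AML-193 (0.24) and fell in HL60 (-0.37), and TK1, thymidine kinase, fell in AML-193 (-0.26). With the covariate TYMS was at -0.11 in AML-193 and -0.15 in HL60, and TK1 at -0.36 in AML-193, none of them called. The dimmest TYMS probe set was called the other way in both lines, at -0.48 in AML-193 and 0.54 in HL60. The remaining TYMS probe set had the direction of the one used, at 1.36 in AML-193 and -1.36 in HL60. The chromatin assembly factor that follows the fork has its large subunit gene CHAF1A lowered in HNT-34, with 10.46 and 10.35 after AZA against 10.75 and 10.75 with vehicle (-0.34 ± 0.07), and in AML-193 (-0.24). CHAF1B, its middle subunit, rose in AML-193 (0.38) and read 8.01 and 7.98 in HL60 with AZA, against 8.70 and 8.71 with vehicle (-0.71 ± 0.10). With the covariate the HL60 fall of CHAF1B was -0.56 and called, and its AML-193 difference was 0.15 and not called.

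Called changes of opposite sign in 2 lines occurred for 17 members, where 20.2% of all genes had them, and most were in AML-193 and HL60. Of the 10 members that rose in AML-193, 9 fell in HL60 (90%), where 30.3% of all genes that rose in AML-193 did so. RPA1 was the exception. Of the 18 that fell in AML-193, 6 rose in HL60 (33.3%, against 40.3% of all genes), and those 6 were ORC6, GINS1, POLD1, FEN1, LIG1 and E2F1. In all, 15 of 49 members (30.6%) were called with opposite signs in these lines, where 14.4% of all genes were. Across the 49 genes the differences of the 2 lines correlated at r = -0.72 (Spearman -0.68), and across all tested genes at r = -0.11 (Spearman -0.24), with genes not independent replicates. The lines share no arrays, but the RNA control also differed between the arms in opposite directions, as given above. The part of RNA quality in this pattern was not tested beyond the covariate fit.

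HNT-34 and KG1a, whose arms differed little in the RNA control, gave the same sign for 37 of 49 members (75.5%, against 62.7% of all genes), with r = 0.52 across members and 0.39 across all genes. CDC45 and DTL fell in both. Of the 24 members that fell in HNT-34, 8.33% were called in KG1a, against 10.9% of all genes that fell in HNT-34. The difference between the effects of HNT-34 and KG1a was itself called for 4 members, all lower in HNT-34, where 8.1% of all genes were called in that direction. A weaker fall in KG1a was therefore not shown for most of the set.

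**Figure D3:**
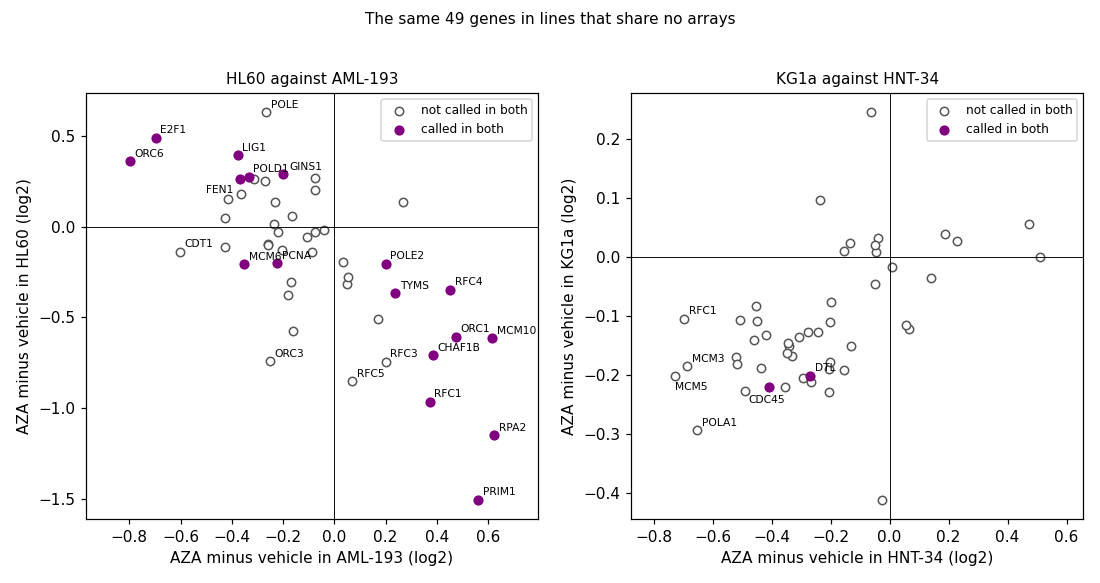
Difference AZA minus vehicle (log2) of the 49 genes in HL60 (y axis) against AML-193 (x axis) on the left, and in KG1a (y axis) against HNT-34 (x axis) on the right; filled points were called in both lines. Filled points on the left lie mostly at the upper left and lower right, with 15 of opposite sign, and both filled points on the right lie in the lower left.

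Other probe sets of the same genes gave a second reading. The array has 94 probe sets for the 49 genes, up to 5 a gene, and 28 genes have several. Of the further probe sets, 40 from 27 genes passed the filter. Their change minus that of the probe set used had a median of 0.22 in AML-193, 0.06 in HNT-34, -0.06 in KG1a and -0.21 in HL60. A gap of more than 0.5 was found for 15 of the 40 in AML-193 and for 15 in HL60, but for 0 in HNT-34 and KG1a. Called changes of opposite sign from 2 probe sets of a gene occurred for 6 genes in AML-193 (CCNE2, FEN1, MCM10, ORC5, TK1 and TYMS), for 2 in HL60 (FEN1 and TYMS) and for 0 in HNT-34 and KG1a.

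CCNE2 shows the size of this disagreement. Its brighter probe set fell by 0.42 on the log2 scale in AML-193, while the other rose by 1.12. In HNT-34 they gave 0.51 and 0.89, both called. In HL60 they gave -0.11, not called, and -1.89. ORC5 had 1.35 in AML-193 and -1.57 in HL60 from its second probe set, and the second probe set of FEN1 had 0.76 and -0.41 there. The probe sets of a gene can also measure different transcripts, and which ends of the transcripts they cover was not analysed here.

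**Figure D4:**
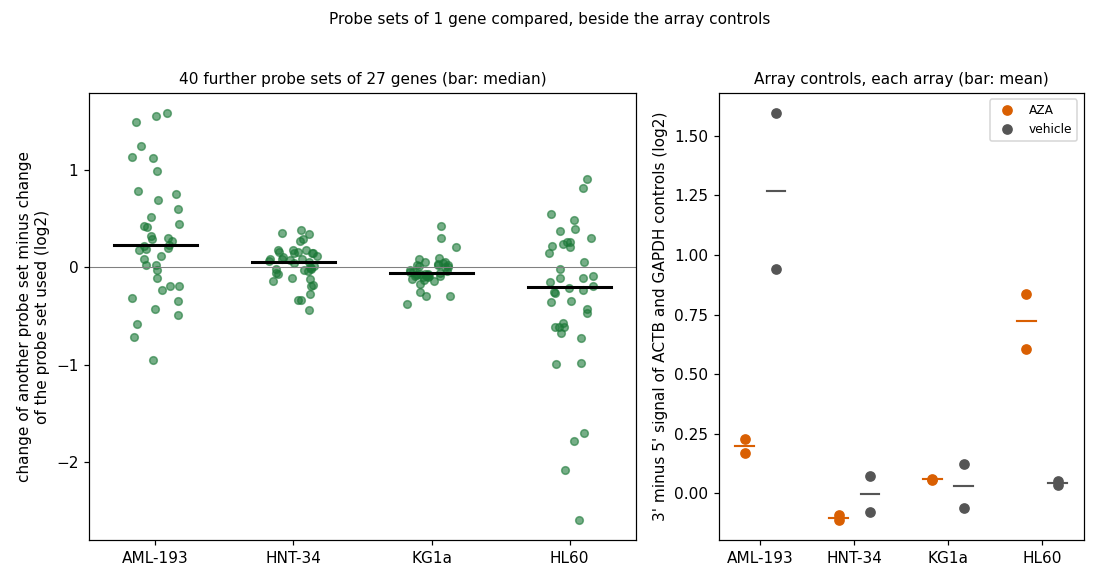
Left, change of each of 40 further probe sets minus the change of the probe set used for the same gene (log2, y axis) in each line, with the median as a bar; right, RNA control signal, 3′ minus 5′ (log2, y axis), on each array, AZA left of vehicle, with the mean as a bar. The spread on the left is wide in AML-193 and HL60, the lines whose arms differ on the right.

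Averaging all single-symbol probe sets of a gene changed these counts in AML-193 to 12 falls and 14 rises (18.6% and 23.2% of all genes) and in HL60 to 26 falls and 7 rises (21.5% and 21.3%). HNT-34 then had 23 falls and 3 rises (15.9% and 16.4%), and KG1a 4 falls (4.39%). ORC5 (0.33), FEN1 (0.20), CCNE2 (0.35) and TK1 (0.24) turned positive in AML-193 with averaged probe sets, and FEN1 turned negative in HL60 (-0.073). The directions of these genes in those lines therefore depend on the probe set.

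With vehicle alone, the level of 48 of 49 members differed between the lines (F-test, adjusted p under 0.05), where 85.1% of all genes did. POLA1 was the exception. Ranges of the 4 vehicle means ran from 0.221 to 2.60 log2 units, with a median of 0.880. KG1a had the highest vehicle mean for 16 members, AML-193 for 14, HL60 for 11 and HNT-34 for 8. HNT-34 had the lowest for 18, AML-193 for 16, HL60 for 12 and KG1a for 3.

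GINS4 varied most, with vehicle signals of 11.75 and 11.64 in KG1a, 10.72 and 10.65 in AML-193, 10.24 and 10.21 in HNT-34, and 8.97 and 9.22 in HL60. Each neighbour in this order differed beyond its spread. CCNE2 was at 11.95 and 11.49 in AML-193 and 11.67 and 11.72 in KG1a, which did not differ (adjusted p = 0.905), at 10.45 and 10.54 in HNT-34, and lowest in HL60 at 9.42 and 9.44. RPA2 was at 13.02 and 12.98 in HNT-34, 12.67 and 12.68 in HL60 and 12.45 and 12.46 in KG1a, with no called step among these, and at 10.81 and 11.07 in AML-193. The low RPA2 level of AML-193 was read on the vehicle arrays with the high RNA control signal, and without that line the range of RPA2 was 0.545 in place of 2.06.

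PRIM1 was high in HL60 (12.28 and 12.34) and HNT-34 (12.14 and 12.00), whose means did not differ (adjusted p = 0.129), and lower in KG1a (10.54 and 10.81) and AML-193 (10.19 and 10.47). For ORC1 the order was HL60 (10.11 and 10.25), KG1a (9.40 and 9.72), HNT-34 (9.37 and 9.08) and AML-193 (8.44 and 8.38), with every step called. CCNE1 was highest in AML-193 (11.47 and 11.25), then in HL60 (10.95 and 11.00), KG1a (10.27 and 10.26) and HNT-34 (9.76 and 9.58), also with every step called. Without AML-193 the range of ORC1 was 0.956 in place of 1.77, that of CCNE1 1.31 in place of 1.69 and that of PRIM1 1.64 in place of 1.98. Over all 49 genes, 71 of 147 steps between neighbouring lines were not called.

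**Figure D5:**
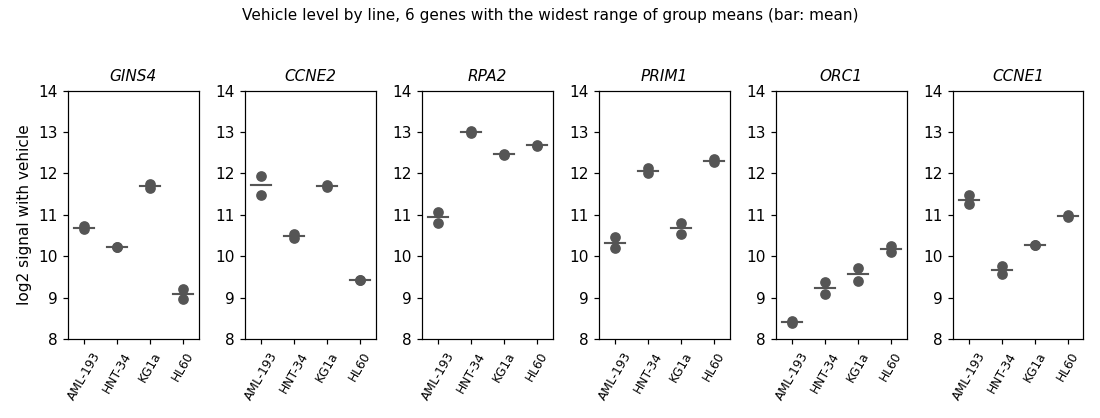
Log2 signal with vehicle (y axis) on each array of the 4 lines for the 6 DNA replication genes with the widest range of group means, with the mean as a bar. GINS4 runs from 8.97 in HL60 to 11.75 in KG1a, and the order of the lines differs between the genes.

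Genes around the set were read from further lists. Over all genes 14.8% fell and 15.4% rose in HNT-34, 20.3% and 20.7% in AML-193, 16% and 25.2% in HL60, and 3.37% and 6.56% in KG1a, and many list counts were near these shares. Of the list genes given below with changes in AML-193 or HL60, none was called in AML-193 with the covariate, and CDC7 (0.55), CKS1B (-1.13) and HUS1 (0.67) were the called ones in HL60. Of 24 other fork and origin factors, 8 fell and 1 rose in HNT-34, 10 fell and 6 rose in AML-193, 6 fell and 6 rose in HL60, and 1 fell and 1 rose in KG1a. MCMBP, which binds and chaperones MCM proteins, read 10.68 and 10.66 in HNT-34 with AZA, against 11.57 and 11.47 with vehicle (-0.85 ± 0.07), rose in AML-193 (0.25) and KG1a (0.24) and fell in HL60 (-0.35). POLD4, the smallest subunit of polymerase delta, rose in HNT-34, with 11.03 and 11.07 after AZA against 10.18 and 9.89 with vehicle (1.01 ± 0.11), and in AML-193 (0.73). Its direction in HNT-34 was thus opposite to that of POLD1 and POLD3.

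Among 9 genes of replication-coupled chromatin and methylation, 5 fell and 0 rose in HNT-34. DNMT1, the maintenance DNA methyltransferase, fell there, with 11.05 and 11.10 after AZA against 11.50 and 11.57 with vehicle (-0.46 ± 0.10). UHRF1, which recruits DNMT1 to hemimethylated DNA, read 10.98 and 10.86 with AZA, against 11.73 and 11.80 with vehicle (-0.85 ± 0.08). HELLS, a chromatin remodeller needed for DNA methylation, fell by 1.02. In HL60 UHRF1 (0.41) and HELLS (1.04) rose, and DNMT1 was not called (-0.18). The list had 2 falls and 2 rises in AML-193, 4 falls and 2 rises in HL60, and none in KG1a (3 lower at an unadjusted limma p under 0.05).

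Of 8 replication kinase and cyclin genes, 4 fell and 1 rose in AML-193, 2 fell in HNT-34, 1 fell in KG1a, and 1 fell and 3 rose in HL60. CDC7, the kinase that fires origins, fell in AML-193 (-0.45) and HNT-34 (-0.22) and rose in HL60 (0.80). CKS1B, a subunit of cyclin-dependent kinases, rose by 1.50 in AML-193 (0.46 with the covariate) and fell by 1.79 in HL60. Of 9 measured deoxynucleotide genes, 0 were called in HNT-34 (2 lower at an unadjusted limma p under 0.05), 3 rose and 2 fell in AML-193, 2 rose and 1 fell in HL60, and 1 rose in KG1a. RRM2, the small subunit of ribonucleotide reductase, was called in no line (-0.16 to 0.14).

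Of 14 measured fork checkpoint and repair genes, 4 fell and 1 rose in HNT-34, 5 fell and 3 rose in AML-193, 2 fell and 4 rose in HL60, and none were called in KG1a (2 lower at an unadjusted limma p under 0.05). HUS1, part of the clamp that signals stalled forks, rose in AML-193 (0.50), HNT-34 (0.36) and HL60 (0.56). Of 21 E2F, RB family and CDK inhibitor genes, 4 fell and 5 rose in HNT-34, 5 fell and 8 rose in AML-193, 9 fell and 6 rose in HL60, and 1 fell and 2 rose in KG1a. CDKN1A, which encodes the CDK inhibitor p21, read 13.32 and 13.35 in HNT-34 with AZA, against 12.28 and 12.23 with vehicle (1.08 ± 0.14). It rose in AML-193 (1.17) and KG1a (0.89) as well and was not called in HL60 (0.36, adjusted p = 0.0584). CDKN2A, the locus of the inhibitor p16, rose in HNT-34 (1.55), KG1a (1.61) and HL60 (0.28).

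Of 22 mitosis genes, 10 rose and 0 fell in HNT-34, where 15.4% of all genes rose, and 12 were not called, 1 of them lower at an unadjusted limma p under 0.05. In HL60 12 of the list rose and 1 fell, in AML-193 7 rose and 6 fell, and in KG1a 1 rose. BUB1, a spindle checkpoint kinase, read 11.42 and 11.32 in HNT-34 with AZA, against 10.40 and 10.42 with vehicle (0.96 ± 0.08). UBE2C, a ubiquitin carrier of the anaphase-promoting complex, rose there by 0.88 and AURKA, a mitotic kinase, by 0.51. MKI67, the gene of the proliferation marker Ki-67, was called only in AML-193 (0.31) and was at 0.20 in HNT-34. In HNT-34 the list medians were thus 0.27 for mitosis and -0.24 for the 49 replication genes.

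Marker lists of other cell types moved in some lines. In KG1a, the T cell marker CD3D read 9.55 and 9.52 with AZA, against 7.37 and 7.45 with vehicle, and the sum of log2 signals over the 4 T cell markers was 32.6 with AZA and 29.2 with vehicle. The epithelial marker KRT8 rose in HNT-34 (0.89) and KG1a (0.60). The myeloid sum over 9 markers was 87.8 in AML-193 with AZA and 81.8 with vehicle, 96.4 in HL60 with AZA and 93.2 with vehicle, and 86.0 in KG1a with AZA and 84.3 with vehicle. Their part in the results on replication genes was not tested.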

How the data were processed

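RNA was measured on Affymetrix U133 Plus 2.0 arrays, 2 in each of 8 groups. The values the authors deposited are log2 signals of probe sets. The submitters' processing notes name affy and RMA. Versions, the log base and the order of steps are not given in the sources used here, and the base was taken as 2 from the range of values (3.26 to 15.34). The values were used as deposited. They carry no detection calls, and 2 arrays per group limit the precision.

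Of 54675 probe sets, 41097 had 1 gene symbol in the platform annotation, 1801 several and 11777 none. Symbols were checked by gene identifier against RefSeq (GRCh38.p14), which matched 41043 and changed 0. A single model of 8 group means was fitted with limma 3.58.1 (R 4.3.3) and moderated by empirical Bayes, and p-values were adjusted over all 14038 tested genes after Benjamini and Hochberg. It gave the AZA effect of each line, the mean and the differences of these effects, and the vehicle levels between lines. The fit was tested on simulated data. Replicate numbers follow accession order and pair no arrays.

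Alternatives were averaged probe sets, no or a stricter filter, repeated quantile normalization, the arrays of a line alone, a mean-variance trend, array weights, the RNA control as a covariate, and leaving out each array. The members, gene lists and alternatives were chosen with earlier results of these data known. Members named with values were those called in at least 3 lines or with opposite signs, the 6 largest rises and falls in each line, the 6 widest vehicle ranges and those whose probe sets disagreed, and every other member was accounted for. From each further list the 3 largest called changes in a line could be named, and DNMT1, UHRF1, CDKN1A, RRM2 and MKI67 in any case. RefSeq promoter windows were searched for exact motif matches.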

Additional observations from a re-analysis of the deposited data

Results flagged for a closer look

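The effect of AZA differed between the lines for 39 of the 49 members by the moderated F-test of limma, against 57.1% of all genes tested. For 17 members, 2 lines gave called changes of opposite sign, where 20.2% of all genes did so, and the difference of the 2 effects was itself called for all 17 (highest adjusted p 0.00308). The differences of effects below are on the log2 scale.

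In AML-193 minus HL60, the difference was positive for PRIM1 (2.07), RPA2 (1.78), RFC1 (1.34), MCM10 (1.23), CHAF1B (1.09), ORC1 (1.08), TYMS (0.60) and POLE2 (0.40). In the same pair it was negative for E2F1 (-1.19), ORC6 (-1.16), LIG1 (-0.77) and FEN1 (-0.63). HNT-34 minus HL60 gave -0.63 for POLD1 and -0.58 for GINS1, which rose in HL60. AML-193 minus HNT-34 gave 0.97 for RFC4, -0.93 for CCNE2 and -0.90 for CCNE1. The pair AML-193 and HL60 made up 12 of the 17, and the arms of both lines differed in the 3′ minus 5′ signal of the RNA controls. The part of that signal in these differences was not tested beyond the covariate fit, in which the F-test was called for 18 members and 31.4% of all genes.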

How the results depend on the processing

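The 24 falls in HNT-34 ranged from 18 to 25 when an array was left out and from 22 to 28 over the other alternatives. The 29 falls in the mean of the lines ranged from 24 to 31 without an array and from 26 to 32 otherwise. With the RNA control as a covariate, AML-193 had 0 rises and 1 fall, HL60 1 rise and 7 falls, the mean of the lines 0 rises, and the F-test 18 members. With it, PRIM1 (-0.12), RFC1 (-0.30), RPA1 (-0.040), RPA2 (-0.13), CCNE2 (0.039), TYMS (-0.11) and CHEK1 (-0.16) changed sign in AML-193, none of them called. Without the filter on dim genes, KG1a had 0 falls and the mean 0 rises. A mean-variance trend gave KG1a 1 rise and 6 falls. Arrays of a line alone gave AML-193 6 rises and 11 falls and KG1a 1 fall. Without an array, counts ranged from 4 to 12 for rises and 12 to 20 for falls in AML-193, 1 to 3 for rises in HNT-34, 0 to 1 for rises and 0 to 4 for falls in KG1a, 5 to 9 for rises and 13 to 19 for falls in HL60, and 0 to 1 for rises in the mean. The lowest AML-193 rises were 4 without the first vehicle array and 5 without either AZA array. The F-test ranged from 31 to 40 members for effects and from 45 to 48 for vehicle levels. Averaged probe sets turned ORC5 (0.33), FEN1 (0.20), CCNE2 (0.35) and TK1 (0.24) in AML-193, and FEN1 (-0.073), MCMBP (0.068), CDC25A (-0.067), SAMHD1 (-0.074), AURKA (-0.0086) and BUB1 (-0.14) in HL60. The cause was not tested. No paired analysis was possible because the labels carry no replicate numbers.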
